A study of Mus musculus with 2 samples.

Results

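The nuclei described here were chosen by their counts of 4 genes, Klhl1, Otx2os1, Ebf2 and Ebf3, among nuclei that carried the GABA genes Gad1, Gad2 and Slc32a1. A nucleus was selected when it had 300 to 7000 detected genes, at least 2000 unique molecular identifiers (UMIs), at least 5 UMIs of the 4 genes together and at least 4 UMIs of the GABA genes together. It also had at most 1 UMI of Slc17a6 and Slc17a7, at most 2 of Baiap3, at most 14 of Pde10a and at most 5 of Mobp and St18. This rule kept 274 of 30413 nuclei, 92 of 12204 in the Normal library and 182 of 18209 in the SAH library. The counts of these genes and of any gene expressed along with them were used in the selection or follow from it, so their levels are given as a description. The 4 genes were themselves proposed from an earlier look at the same libraries.

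The libraries came from male mice, given as 6 to 8 weeks old in the labels and as somewhat older in the study's methods, and each pooled tissue of 3 mice. SAH mice had subarachnoid haemorrhage made by endovascular perforation and were killed 12 h later. The labels call the control mice normal, whereas the study describes sham-operated controls, so whether the control mice had the operation without the perforation is not settled. The tissue was the hemisphere on the injured side, from the level of the medial prefrontal cortex back to that of the centrolateral thalamus, and nuclei from cortex, striatum, septum, pallidum, hypothalamus, amygdala and thalamus could all be present. With 1 library per condition there was no replicate, and no test between conditions was possible. The intervals given are 95% and cover counting error only, not the difference between mice, dissections or libraries. Those of levels and ratios also leave out the spread between nuclei, since UMIs were summed over nuclei and treated as independent.

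Inhibitory neurons make GABA with the glutamate decarboxylases Gad1 and Gad2 and load it into vesicles with the transporter Slc32a1. Those of the cortex derive largely from the ganglionic eminences and keep factors such as Lhx6, Sox6 and Adarb2. Pretectal and midbrain-derived inhibitory neurons are instead marked by Otx2, Sox14, Gata3 and Tal1. Their list, called the pretectal and midbrain list below, names an origin and not a place in the tissue. The Ebf genes code for helix-loop-helix transcription factors of neuronal differentiation. Klhl1 codes for an actin-binding kelch protein, and Otx2os1 is a long noncoding RNA transcribed from the strand opposite to the homeobox gene Otx2.

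Klhl1 lies on chromosome 14 of GRCm38, from 96102736 to 96519102 on the minus strand. Otx2os1 is annotated as a lincRNA from 48668708 to 48870683 on the plus strand of the same chromosome, and its first part overlaps Otx2, which runs from 48657677 to 48673819 on the minus strand. Cell Ranger assigns reads by strand, so the reads of this pair of genes were separable.

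The selection rested almost wholly on Klhl1 and Otx2os1. Klhl1 gave 791 of the 923 rule UMIs in the Normal nuclei and 1230 of 1917 in the SAH nuclei. Otx2os1 gave 117 and 627 UMIs, with 18 UMIs in the Normal nucleus and 82 in the SAH nucleus that had most. Ebf2 gave 10 and 30 UMIs and Ebf3 gave 5 and 30. Klhl1 had the most UMIs of the 4 genes in 78 Normal and 133 SAH nuclei, Otx2os1 in 13 and 45, and Ebf2 or Ebf3 in 1 and 3, with 1 SAH nucleus tied. Of the 4 genes, Klhl1 alone was detected in 73 Normal nuclei (79.3%) and 124 SAH nuclei (68.1%).

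The Ebf part of the working name therefore held for few of the nuclei. At least 1 UMI of Ebf1, Ebf2 or Ebf3 was counted in 9 of 92 Normal nuclei (9.78%) and 28 of 182 SAH nuclei (15.4%). Ebf1, which the rule did not use, stood at 143 CPM (UMI counts scaled to a total of 1000000) in Normal and 105 CPM in SAH, against 36.5 and 17.0 CPM in the other GABA nuclei. These are the nuclei within the same limits that had under 5 UMIs of the 4 genes, 1232 in Normal and 1566 in SAH. The Ebf1 level came from 8 Normal and 23 SAH nuclei, and 101 of the 177 Normal UMIs were in a single nucleus. The log2 ratio of SAH over Normal for Ebf1 was -0.44 with an interval from -0.72 to -0.16, and 0.41 when the nucleus with most Ebf1 UMIs was left out of each library, so no direction is given. Otx2os1 was likewise found in a minority, 17 Normal (18.5%) and 52 SAH nuclei (28.6%). The nuclei are therefore called the selected nuclei from here on.

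Free RNA was checked in oligodendrocyte nuclei, which should lack these genes, with every nucleus thinned to 2000 UMIs. Median depth before thinning was 11453 UMIs in the Normal and 12715.5 in the SAH selected nuclei, and 3898.5 and 3802 in oligodendrocyte nuclei. After thinning, Klhl1 was detected in 67.4% and 56.0% of selected nuclei, and in 0 of 208 and 13 of 621 (2.09%) oligodendrocyte nuclei, where 0 of 208 allows a share of up to 1.44%. Otx2os1 was detected in 13.0% and 22.0% of selected nuclei against 0 of 208 and 2 of 621 (0.322%). Before thinning these shares were 89.1% and 84.6% for Klhl1 and 18.5% and 28.6% for Otx2os1 in the selected nuclei, and 3.37% and 3.54%, and 0.962% and 0.322%, in oligodendrocyte nuclei. For both genes these differences follow from the selection and are given as a description. Ebf1 after thinning was detected in 4.35% (1.20 to 10.8%) of Normal and 6.04% (3.06 to 10.6%) of SAH selected nuclei, against 0.962% (0.117 to 3.43%) and 0.966% (0.355 to 2.09%) in oligodendrocyte nuclei. The intervals for Ebf1 were apart in SAH and overlapped in Normal. Before thinning Ebf1 was found in 8.70% and 12.6% of selected nuclei and in 0.962% and 1.77% of oligodendrocyte nuclei. No barcode was shared between selected nuclei of the libraries, out of 78 shared between the whole libraries.

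**Figure D1:**
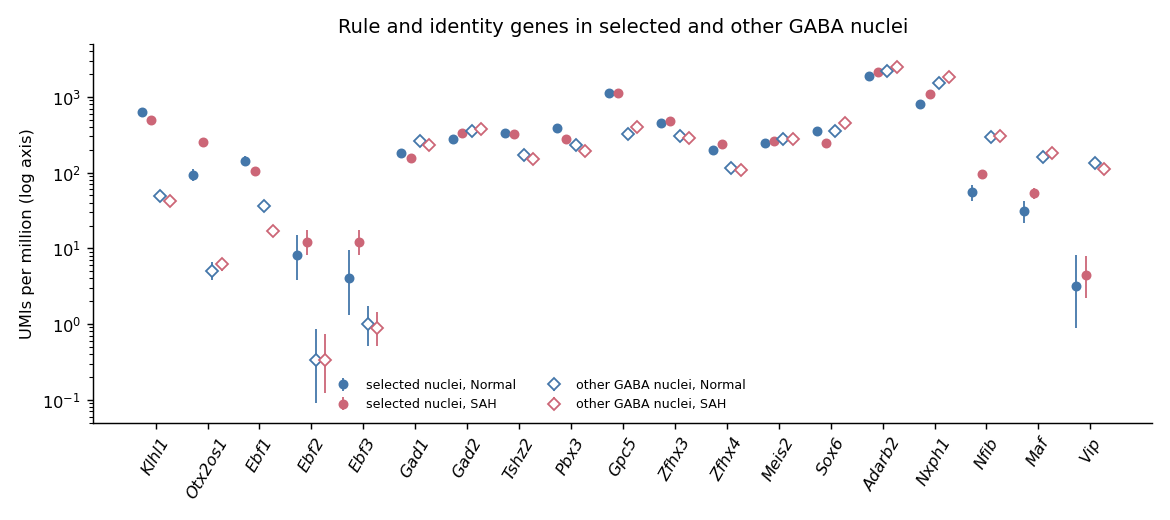
CPM on a log axis for the genes of the rule and for identity genes, in the selected nuclei (filled circles) and in the other GABA nuclei (open diamonds) of the Normal and SAH libraries, with exact Poisson 95% intervals. Klhl1 and Otx2os1 separate the classes because they chose the nuclei, Meis2 and Adarb2 lie at similar levels in both classes, and Nfib, Maf and Vip lie lower in the selected nuclei.

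Nuclei just inside and just outside the threshold were compared in genes the rule did not use. With 5 rule UMIs there were 16 Normal and 40 SAH nuclei, and with 4 there were 36 and 63. Tshz2 stood at 219 and 372 CPM in the nuclei with 5 and at 303 and 240 CPM in those with 4. Gpc5 stood at 155 and 1280 CPM with 5 and at 801 and 267 CPM with 4. Neither gene was higher inside the threshold in both libraries.

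Apart from Klhl1 and Otx2os1, the genes furthest above the other GABA nuclei were Ebf1, Gm2164 and Gpc5, by log2 folds of 1.97, 1.63 and 1.47 in the library where each was smaller. The place of Ebf1 rested on 1 nucleus, without which its Normal level was 62.9 CPM against 36.5 CPM in the other GABA nuclei. Among genes with at least 100 UMIs in the selected nuclei, the 15 with the largest fold in the library where it was smaller included Ebf1, Gpc5, Rmst, Khdrbs2, Tshz2, Igsf21, Col8a1, Ccdc141, Meis1 and the noncoding genes Gm2164, Gm20713, Gm32647 and 2700069I18Rik. Gpc5, a glypican of the cell surface, stood at 1119 CPM in Normal and 1122 CPM in SAH, against 326 and 404 CPM in the other GABA nuclei. Tshz2, a zinc finger homeobox factor, stood at 336 and 324 CPM against 172 and 152 CPM. Rmst, a long noncoding RNA of neurogenesis, stood at 465 and 418 CPM against 226 and 175 CPM. The smaller log2 folds of Rmst and Tshz2 were 1.04 and 0.97. Khdrbs2, which codes for an RNA-binding splicing regulator of neurons, stood at 743 and 576 CPM against 294 and 283 CPM. After thinning Gpc5 was detected in 23.9% and 26.4% of the selected nuclei, 12.1% and 14.2% of the other GABA nuclei and 5.29% and 5.48% of oligodendrocyte nuclei. Before thinning it was detected in 45.7% and 40.7% of the selected nuclei, 22.7% and 25.7% of the other GABA nuclei, and 10.1% and 11.8% of oligodendrocyte nuclei. The GABA nuclei that the rule left out for over 2 Baiap3 UMIs, 110 in Normal and 24 in SAH, carried these genes in similar shares. After thinning Gpc5 was detected in 22.7% and 33.3% of them, Tshz2 in 42.7% and 37.5%, and Rmst in 41.8% and 41.7%. The selected nuclei had Tshz2 in 41.3% and 35.7% and Rmst in 48.9% and 37.9%, and the intervals of the classes overlapped for each of the 3 genes in both libraries. Gpc5 was uneven, since a single nucleus held 342 of 1387 Normal UMIs and another 693 of 2791 SAH UMIs.

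Genes of cortical interneurons were mixed in the selected nuclei. Vip, a peptide of 1 interneuron class, stood at 3.23 and 4.42 CPM against 136 and 113 CPM in the other GABA nuclei, from 4 and 11 UMIs. Maf, a factor of interneurons from the medial ganglionic eminence, stood at 30.7 and 53.1 CPM against 161 and 179 CPM, and Nfib stood at 54.9 and 95.7 CPM against 296 and 307 CPM. Adarb2, by contrast, stood at 1916 and 2146 CPM against 2167 and 2455 CPM. Sox6 was level with the other GABA nuclei in Normal, at 353 against 355 CPM, and below them in SAH, at 246 against 449 CPM. The summed level of the 9 cortical interneuron genes listed was 3369 CPM in Normal and 3908 CPM in SAH against 4865 and 5460 CPM.

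Of the regional lists, the pretectal and midbrain list and the basal forebrain cholinergic list summed higher than in the other GABA nuclei of both libraries. Each stood at a low level. The thalamic reticular list (Six3, Isl1, Pvalb, Ecel1, Spp1, Meis2 and Cacna1i) summed to 313 and 305 CPM against 394 and 350 CPM in the other GABA nuclei. Most of that sum in the selected nuclei was Meis2, at 245 and 262 CPM. Meis2 was no higher than in the other GABA nuclei, at 279 and 278 CPM. After thinning Meis2 was detected in 17.4% (10.3 to 26.7%) and 22.0% (16.2 to 28.7%) of selected nuclei, with 13.5% (9.14 to 18.9%) and 12.6% (10.1 to 15.4%) in oligodendrocyte nuclei, and in 25.0% and 27.5% against 21.6% and 21.1% before thinning. The intervals overlapped in Normal. The striatal list summed to 729 and 775 CPM against 944 and 817 CPM, under a rule that capped Pde10a, its most abundant gene. The lateral septum list summed to 282 and 262 CPM against 425 and 496 CPM. The hypothalamic list summed to 221 and 97.3 CPM against 159 and 102 CPM, under a rule that capped Baiap3. The zona incerta list stood at 75.8 and 43.4 CPM against 87.0 and 56.7 CPM, and the basal forebrain cholinergic list at 42.0 and 32.6 CPM against 29.4 and 18.3 CPM. The prototypic pallidal list summed to 395 and 267 CPM against 407 and 482 CPM, and the arkypallidal list to 403 and 443 CPM against 453 and 458 CPM. The list of the central amygdala and stria terminalis summed to 164 and 176 CPM against 434 and 163 CPM. The pretectal and midbrain list stood at 16.9 and 44.2 CPM against 5.64 and 8.92 CPM.

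Selected nuclei varied in the genes they carried and are described here in groups. Ward clustering on 15 principal components of 1000 variable genes, with the rule genes left out, was divided at 6 groups. That number was fixed, so the division itself does not show how many types there are. The genes that define a group were used to form it, and are given to describe it. A group was to be named only where at least 3 markers of a list stood at 3 times the level of all GABA nuclei outside the selection. Those nuclei themselves carried cortical interneuron genes, with Adarb2 at 2154 CPM, and none of the 9 genes on that list met the level in any group. The naming count therefore could not decide for the cortical interneuron list. Each group is called here by the first of its leading genes.

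The largest group, led by Mecom, held 23 Normal and 86 SAH nuclei. Its leading genes were carried by few of them, since Mecom, a zinc finger factor, was detected in 1 Normal and 10 SAH selected nuclei and Bnc2 in 1 and 6. Tcf7l2, a Wnt effector expressed widely in the thalamus and midbrain, was commoner at 81.1 CPM in this group and 10.1 CPM in the other selected nuclei. The group met the naming count for the pretectal and midbrain list with 5 of 8 genes, Otx2, Sox14, Gata3, Tal1 and Tfap2b, from 31, 7, 27, 17 and 8 UMIs. At least 1 of the 5 was detected in 46 of its 109 nuclei (42.2%) and at least 2 in 12. The markers did not include its leading genes, and the count rested on few UMIs, so the group is still called by its first leading gene. A nucleus with no UMI of these markers may nevertheless express them. Otx2os1 stood at 311 CPM and Klhl1 at 502 CPM in it.

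The smallest group, led by Hmcn1, shared Otx2 and Sox14 with it and had the most Otx2os1. It held 2 Normal and 8 SAH nuclei with Otx2os1 at 2433 CPM, Otx2 at 127 CPM, Meis2 at 1075 CPM and Klhl1 at 87.9 CPM. Otx2, Sox14, Gata3, Tal1 or Tfap2b was detected in 8 of its 10 nuclei. With 2 markers of the pretectal and midbrain list past the level required, it did not meet the naming count.

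The second group, led by Tac2, held 29 Normal and 47 SAH nuclei. Tac2, which codes for neurokinin B, stood at 163 CPM in the group and 10.8 CPM in the other selected nuclei, and the phosphodiesterase gene Pde11a at 189 and 26.0 CPM. The prolactin receptor gene Prlr stood at 118 and 24.5 CPM. Tac2 UMIs came from 6 Normal and 18 SAH selected nuclei, so this group was uneven as well. It held 17 of the 37 selected nuclei with an Ebf1, Ebf2 or Ebf3 UMI, and the Mecom group held another 17. Ebf1 stood at 237 CPM in the Tac2 group and 142 CPM in the Mecom group. Sox6 stood at 121 CPM in the Tac2 group, above Otx2os1 at 67.9 CPM, and Sox6 or Lhx6 was detected in 20 of its 76 nuclei (26.3%).

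The third group, led by Megf10, held 28 Normal and 15 SAH nuclei and was of another kind. It carried Sox6 at 697 CPM and Lhx6 at 45.7 CPM, with Meis2 at 2.77 CPM and Otx2os1 at 0 of 722063 UMIs, which allows up to 4.15 CPM. Lhx8, a factor of basal forebrain neurons, stood at 63.7 CPM and Gbx1 at 44.3 CPM, the pair of cholinergic list genes that met the level required. Gpc5 stood at 3835 CPM in this group, which held 1233 of the 1387 Normal Gpc5 UMIs. Pdgfra and Cspg4, 2 of the 4 oligodendrocyte precursor genes, also met that level, from 9 and 5 UMIs, and their source was not tested. All 43 nuclei were selected on Klhl1 alone, at 701 CPM.

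The remaining groups also carried Sox6 and Lhx6, which stand on both the cortical interneuron and the pallidal list. The group led by Sst, the gene of the peptide somatostatin, held 5 Normal and 20 SAH nuclei, with Sst at 705 CPM, Synpr at 1399 CPM, Sox6 at 669 CPM and Lhx6 at 56.8 CPM. The group led by Iqgap2 held 5 and 6 nuclei, with Erbb4 at 15695 CPM, the potassium channel gene Kcnc2 at 6157 CPM and Sox6 at 807 CPM. No Ebf1, Ebf2 or Ebf3 UMI was counted in any of these 36 nuclei. Markers therefore gave no single regional origin for the selected nuclei, subcortical or other.

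**Figure D2:**
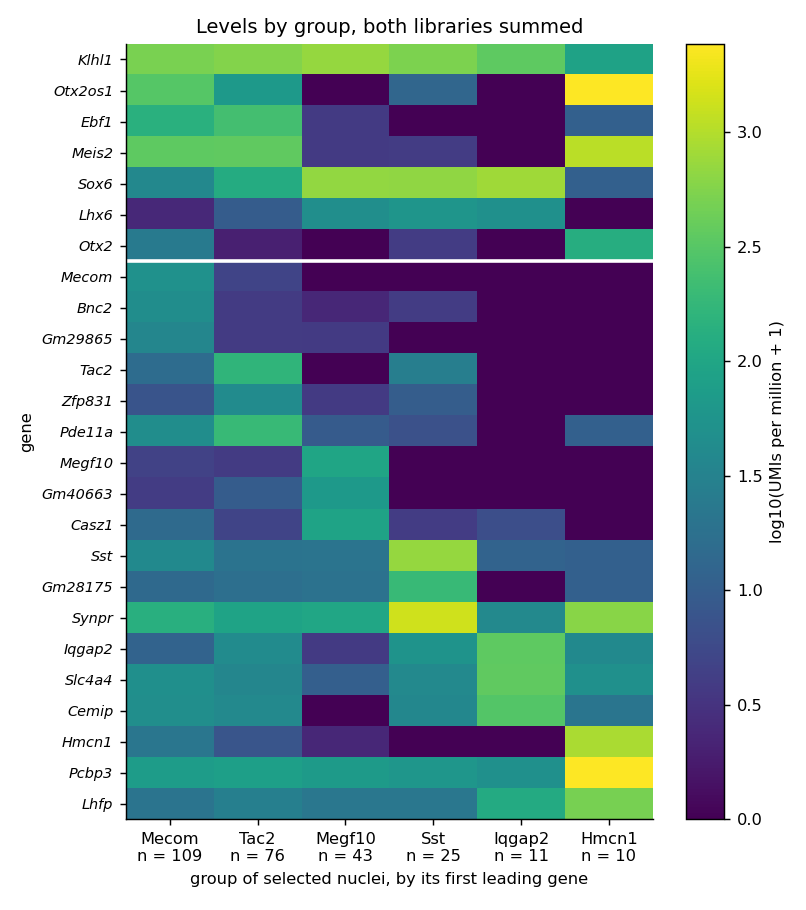
Levels as log10 of CPM plus 1, summed over both libraries, for rule and identity genes (above the white line) and the 3 leading genes of each of the 6 groups of selected nuclei (columns, with the number of nuclei). Klhl1 is present in all columns. Meis2 and Otx2os1 are highest in the Mecom, Tac2 and Hmcn1 columns, and Sox6 and Lhx6 in the Megf10, Sst and Iqgap2 columns, with Sox6 also at 121 CPM in the Tac2 column.

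The selected nuclei made up 0.917% (0.740 to 1.12%) of the 10035 Normal nuclei within the gene and UMI limits and 1.19% (1.02 to 1.38%) of the 15287 SAH nuclei. The intervals overlapped. With every nucleus first thinned to 2000 UMIs and lower thresholds to match, the shares were 0.428% and 0.432%. Of the 43 Normal and 66 SAH nuclei chosen in that way, 19 and 36 were among the selected nuclei, so those shares describe a partly different set. Of all GABA nuclei they made up 5.14% (4.17 to 6.27%) in Normal and 8.93% (7.73 to 10.3%) in SAH. That denominator itself differed, since GABA nuclei with over 2 Baiap3 UMIs were 6.15% and 1.18% of it and those with over 14 Pde10a UMIs were 19.8% and 13.0%.

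The make-up of the selected nuclei differed between the libraries as well. The Megf10 group was 30.4% (21.3 to 40.9%) of the Normal and 8.24% (4.69 to 13.2%) of the SAH selected nuclei. The Mecom group was 25.0% (16.6 to 35.1%) and 47.3% (39.8 to 54.8%). The Tac2 group was 31.5% (22.2 to 42.0%) and 25.8% (19.6 to 32.8%). The intervals were apart for the Megf10 and Mecom groups and overlapped for the Tac2 group. The groups were formed from the same counts, and a different piece of tissue in each pool, a change in the nuclei and a change in recovery cannot be told apart. The ratios between the libraries below were taken over nuclei of this differing make-up. For the 20 genes in the plot of the largest ratios, and for some others, a ratio with the Mecom, Tac2 and Megf10 groups weighted equally was added after the groups were seen.

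**Figure D3:**
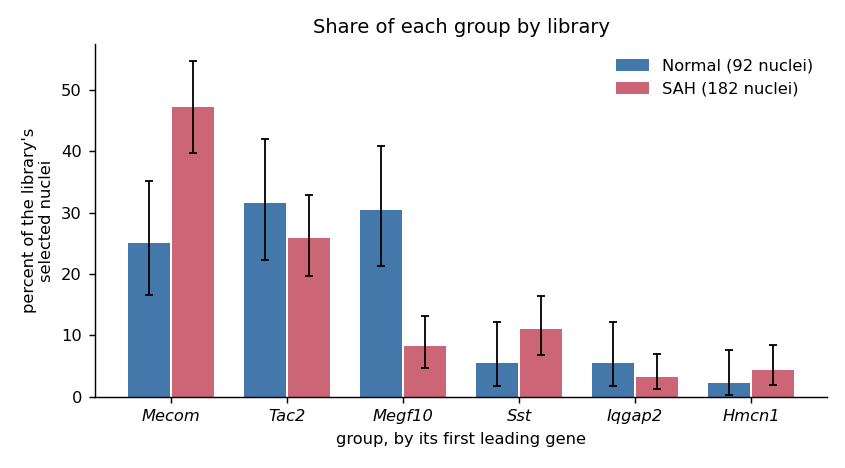
Percent of each library's selected nuclei in each of the 6 groups, with exact binomial 95% intervals, for 92 Normal and 182 SAH nuclei. The Megf10 group is the larger share in Normal and the Mecom group in SAH, with intervals that do not overlap for either.

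Between the libraries, 5243 genes had at least 100 UMIs in the selected nuclei and were compared. Of these, 108 (2.06%) were at least 2-fold higher in SAH and 102 (1.95%) at least 2-fold lower, and the median log2 ratio was -0.10. Genes of the rule were left in, and Otx2os1 was among the 108, with a log2 ratio of 1.42 that was 0.12 with the groups weighted equally. With the ratios centred on that median the counts were 135 and 59. All 210 had an interval that left out 0, which follows largely from the limits of 2-fold and 100 UMIs. Most differed the same way in the other GABA nuclei, 102 of the 108 higher and 100 of the 102 lower, and 48 and 42 were also past 2-fold there. Both classes came from the same libraries, so this is no independent replicate, and the matching share over all 5243 genes is not given. With the 3 largest groups weighted equally, 84 of the 108 and 78 of the 102 stayed past 2-fold. Those 3 groups differ from the whole set also in leaving out the other 3. A ratio near 0 could also hide differences within the groups. Gpc5 had a log2 ratio of 0.00 over all selected nuclei. It was instead 1.38, 1.64 and 1.00 within the Mecom, Tac2 and Megf10 groups, and 1.09 with the groups weighted equally. The group ratios came from 65, 88 and 1233 Normal and 693, 451 and 1536 SAH UMIs. The nuclei with most Gpc5 UMIs were not left out, so a group's ratio may rest largely on a single nucleus.

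Hmcn1, the gene of the extracellular matrix protein hemicentin, had the largest ratio, from few nuclei. It had 5 UMIs in Normal and 123 in SAH, 4.03 and 49.4 CPM, a log2 ratio of 3.62 (2.35 to 5.26). Of the SAH UMIs, 72 came from a single nucleus. In the other GABA nuclei it stood at 20.9 and 20.2 CPM, and with the groups weighted equally the log2 ratio was 1.18, still past 2-fold. Hmcn1 leads the smallest group, of 2 Normal and 8 SAH nuclei. Within the Mecom group it had 1 and 27 UMIs, for a log2 ratio of 2.72 (0.12 to 8.07). Within the Tac2 group it had 3 and 4 UMIs, for a log2 ratio of -0.30 (-2.87 to 2.47), and within the Megf10 group 1 and 0. The rise with the groups weighted equally therefore came from the Mecom group. Arhgef26, a guanine nucleotide exchange factor gene, was lower in SAH, with 61.3 CPM in Normal and 16.1 CPM in SAH, for a log2 ratio of -1.93 (-2.52 to -1.36). It was among the leading genes of the Megf10 group, at 102 CPM against 13.98 CPM in the other selected nuclei, and its log2 ratio was -1.10 with the groups weighted equally and -0.31 in the other GABA nuclei. Within the Megf10 group it had 60 and 14 UMIs, for a log2 ratio of -1.41 (-2.37 to -0.56). The part of the make-up in either ratio was not tested beyond these values.

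The other genes highest in SAH were mostly noncoding transcripts, and with the groups weighted equally their ratios stayed within the interval. AY036118 stood at 75.8 CPM in Normal and 246 CPM in SAH, for a log2 ratio of 1.70 (1.38 to 2.03), and it was at 77.2 and 261 CPM in the other GABA nuclei. Gm47027 stood at 18.6 and 79.2 CPM, 4930509J09Rik at 42.8 and 164 CPM, and Gm15680 at 72.6 and 226 CPM. All of these were past 2-fold in the other GABA nuclei too, with log2 ratios of 1.73, 1.32 and 1.42. 4930509J09Rik was also a leading gene of the Sst group, at 592 CPM against 77.2 CPM in the other selected nuclei. That group held 198 of its 460 UMIs and is left out of the equal weighting. Within the Mecom, Tac2 and Megf10 groups the log2 ratio of 4930509J09Rik was 1.31, 1.97 and 1.97. Gm28376 stood at 6.45 and 38.6 CPM, from 8 and 96 UMIs. The remaining higher genes were Gm5441, 4930445B16Rik, Pard3bos1 and Ptgds. Ptgds codes for prostaglandin D synthase, which is abundant in meninges and oligodendrocytes. It stood at 20.2 and 70.8 CPM, and 57 of its 176 SAH UMIs were in a single nucleus, without which and without its Normal counterpart the log2 ratio was 1.36 in place of 1.81.

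The 10 genes lowest in SAH included Ring1, Vgf, Resp18, Atp6v0b and Ndufaf4. Ring1, a Polycomb ubiquitin ligase gene, stood at 62.1 CPM in Normal and 12.5 CPM in SAH, for a log2 ratio of -2.32 (-2.97 to -1.70), and at 53.3 and 16.5 CPM in the other GABA nuclei. It was detected in 52 of 92 Normal and 30 of 182 SAH nuclei. Vgf, the gene of a secreted neuronal peptide precursor, stood at 47.6 and 16.5 CPM and Resp18, a gene of dense core vesicles, at 188 and 81.2 CPM. Their log2 ratios of -1.53 and -1.21 lay beside -1.81 and -1.18 in the other GABA nuclei. Atp6v0b, a subunit of the vacuolar proton pump, stood at 278 and 117 CPM, and Ndufaf4, which helps assemble respiratory complex I, at 79.1 and 26.9 CPM. AC149090.1, Taf1d, Ankrd13d and Pabpn1 completed the 10. All 10 were lower in SAH within each of the Mecom, Tac2 and Megf10 groups, with intervals below 0 for 8, 7 and 10 of them. Of the 10 genes highest in SAH, 10, 9 and 8 were higher within these groups, with intervals above 0 for 9, 8 and 7. Both sets of genes were chosen from the same UMIs, so this agreement follows in part from the choice and is given as a description.

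**Figure D4:**
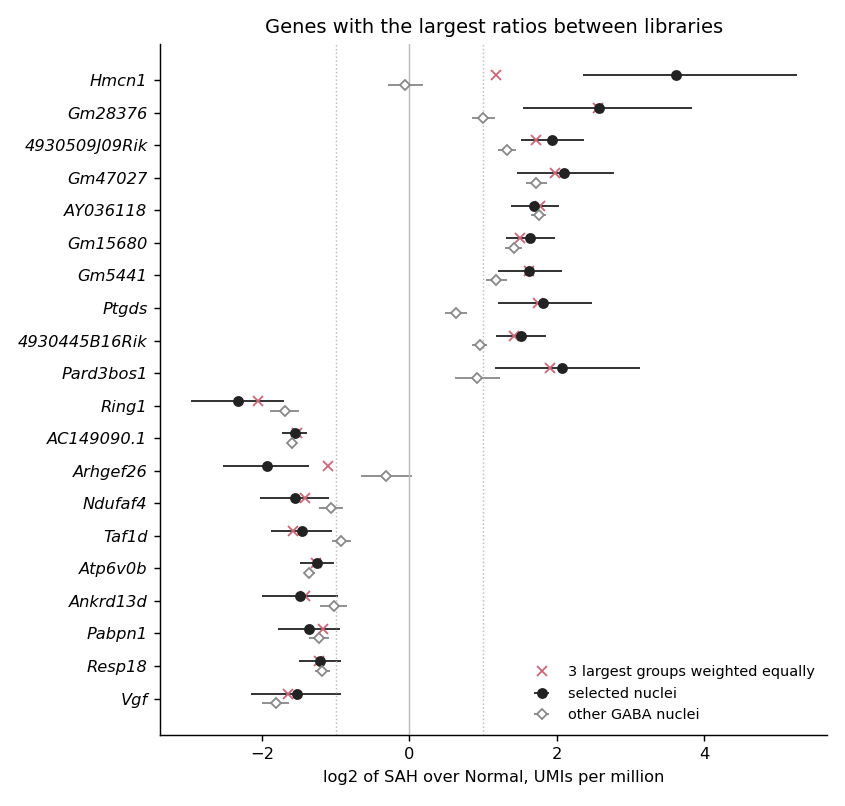
Log2 of SAH over Normal for the 10 genes highest and the 10 lowest in SAH, ordered by the end of the interval nearer 0, in the selected nuclei (black), in the other GABA nuclei (open diamonds) and with the 3 largest groups weighted equally (crosses), with exact 95% intervals and dotted lines at 2-fold. Hmcn1 and Arhgef26 are the genes whose crosses lie outside the interval of the selected nuclei, and their diamonds lie at -0.05 and -0.31.

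Most genes of the respiratory chain that could be compared were lower in SAH. Of 23 listed, 12 were compared. The interval lay below 0 for 9 and above 0 for 1, beside 22.4% and 14.7% of all genes. Of the 12, 3 were at least 2-fold lower, beside 1.95% of all genes, and none at least 2-fold higher. The median log2 ratio was -0.79 against -0.10 over all genes. The cytochrome c oxidase gene Cox8a stood at 65.3 CPM in Normal and 27.7 CPM in SAH, and Cox4i1 at 74.2 and 35.0 CPM. The complex I gene Ndufa13 stood at 52.4 and 21.7 CPM. Ndufs4, of the same complex, went the other way, at 123 and 152 CPM with an interval of the log2 ratio from 0.03 to 0.59. The median was -0.57, -0.88 and -1.20 within the Mecom, Tac2 and Megf10 groups. The same 12 genes had a median of -0.84 in the other GABA nuclei.

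Most of the few heat shock chaperones compared were lower as well. Of 14 listed, 6 were compared, 3 were at least 2-fold lower, beside 1.95% of all genes, and 5 had an interval below 0, beside 22.4% of all genes. Their median log2 ratio was -0.97 against -0.10 over all genes, and -1.01 in the other GABA nuclei. Hsp90ab1 stood at 89.5 CPM in Normal and 35.8 CPM in SAH, Hspa8 at 79.1 and 35.4 CPM, and Hsph1 at 46.8 and 18.1 CPM. Hspa4l stood at 129 and 134 CPM, a difference within counting error. Hspa5, the endoplasmic reticulum chaperone, stood at 149 and 90.9 CPM, the only gene of the unfolded protein list that could be compared.

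Glucocorticoid receptor targets had few UMIs, and 3 of 18 were compared. Fkbp5, a chaperone that dampens the receptor, stood at 32.3 CPM in Normal and 53.9 CPM in SAH, for a log2 ratio of 0.74 (0.22 to 1.29). Zbtb16 stood at 36.3 and 63.9 CPM, a ratio of 0.82 (0.33 to 1.33), and Sgk1 at 97.6 and 81.6 CPM, with an interval that held 0. None of the 3 passed 2-fold, where 2.06% of all genes were higher and 1.95% lower by that much. A list this short would hold few or none at that share. The interval lay above 0 for 2 of the 3, beside 14.7% of all genes. Fkbp5 and Zbtb16 differed by similar amounts in the other GABA nuclei, with log2 ratios of 0.82 and 0.72.

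Activity-dependent genes gave little to compare. Of 18 rapid genes, Homer1 alone reached 100 UMIs, at 92.8 and 92.5 CPM. Of 13 late genes, 4 were compared. Inhba, an activin subunit gene, stood at 20.2 CPM in Normal and 45.8 CPM in SAH, for a log2 ratio of 1.18 (0.55 to 1.87), while Vgf and the granin gene Scg2 were lower, Scg2 at 209 and 121 CPM. Inhba had a log2 ratio of 1.32 in the other GABA nuclei and 1.41 with the groups weighted equally. The cold-inducible gene Rbm3 stood at 46.0 and 22.9 CPM. No gene of the hypoxia list had 100 UMIs, and its 12 genes summed to 120 and 100.1 CPM.

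Genes of inhibitory transmission and excitability differed by less than 2-fold with 1 exception, Scn3b. None of 6 compared genes of GABA synthesis and handling, 11 of GABA-A receptor subunits, 21 of glutamate receptor subunits, 11 of calcium channels and 29 of potassium channels passed 2-fold in either direction, where 2.06% of all genes were higher and 1.95% lower by that much, so lists of this size would hold few or none at the background share. Their median log2 ratios were -0.12, 0.10, 0.12, 0.00 and 0.20. Gad1 stood at 180 and 155 CPM and Gad2 at 280 and 330 CPM, both used in the rule. The potassium channel gene Kcnd2 stood at 1870 and 2529 CPM, a log2 ratio of 0.44 (0.37 to 0.50), 0.31 with the groups weighted equally and 0.02 in the other GABA nuclei. Of 9 sodium and HCN channel genes, Scn3b was at least 2-fold lower, at 54.9 and 26.9 CPM. Of 22 synaptic adhesion genes none passed 2-fold and the median was 0.20, with Nrxn3 at 7651 and 10173 CPM. The interval lay above 0 for 13 and below 0 for 5 of the 29 potassium channel genes, for 9 and 3 of the 21 glutamate receptor genes and for 14 and 1 of the 22 adhesion genes. On the other lists the intervals were 5 above and 2 below of 11 GABA-A receptor genes, 4 and 3 of 11 calcium channel genes, 2 and 3 of 9 sodium and HCN channel genes, and 2 and 2 of 6 genes of GABA synthesis and handling. Over all genes compared, 14.7% had an interval above 0 and 22.4% below 0. The nuclear RNA Malat1 stood at 40406 and 27469 CPM, a log2 ratio of -0.56, and -0.57 in the other GABA nuclei. Malat1 took a smaller share of the SAH UMIs, and every CPM value is a share of the same total. The part of this in the other ratios was not tested.

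**Figure D5:**
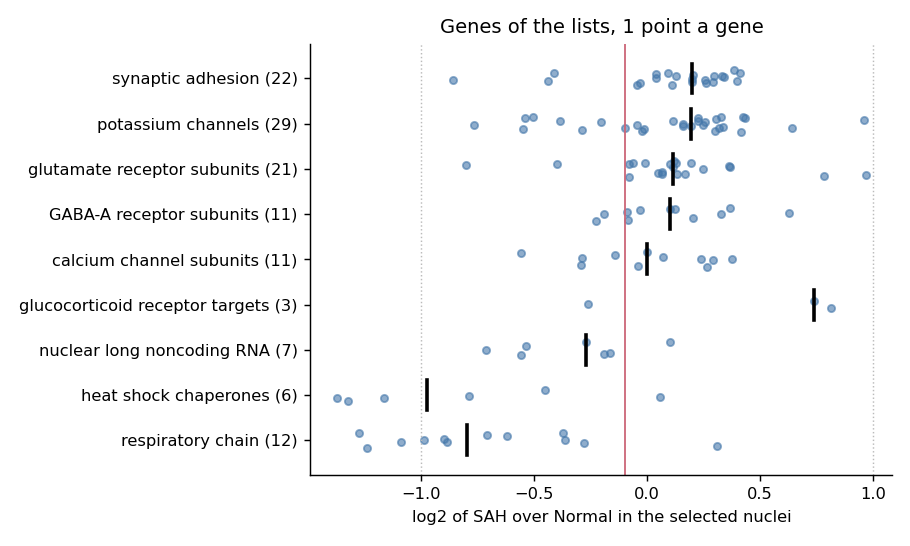
Log2 of SAH over Normal in the selected nuclei for each compared gene of 9 lists (points, with the number of genes in brackets), with the median of each list (black bar), the median of all 5243 genes (red line, -0.10) and dotted lines at 2-fold. Respiratory chain genes and chaperones lie mostly left of the red line. The medians of the adhesion, potassium channel, glutamate receptor, GABA-A receptor and calcium channel lists lie right of it. They are 0.20, 0.20, 0.12, 0.10 and -0.001.

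Markers of other cells were low in the selected nuclei. Genes of oligodendrocytes, 8 of 8 detected, summed to 122 CPM in Normal and 91.7 CPM in SAH under a rule that limited Mobp and St18. Those of astrocytes, 6 of 6, summed to 47.6 and 61.9 CPM, of which Slc4a4 gave 42.0 and 55.9 CPM. Those of microglia, 6 of 6, summed to 112 and 124 CPM, with P2ry12 at 51.6 and 78.4 CPM, and the other GABA nuclei had 110 and 119 CPM. Oligodendrocyte precursor genes, 4 of 4, summed to 52.4 and 25.7 CPM, led by Vcan, and excitatory neuron genes, 6 of 6 under a rule that limited Slc17a6 and Slc17a7, to 16.9 and 28.9 CPM. Vascular genes, 4 of 6 with Cldn5 and Slc6a13 at 0, summed to 4.03 and 2.41 CPM, led by Pdgfrb. Choroid plexus and ependymal genes, 4 of 6 with Folr1 and Ccdc153 at 0, summed to 7.26 and 6.83 CPM, led by Clic6. Haemoglobin genes, 4 of 4, summed to 7.26 and 2.01 CPM, led by Hba-a1. The part of these RNAs in the ratios was not tested.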

How the data were processed

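Nuclei were captured with 10x Genomics 3′ chemistry. The deposited files hold raw UMI counts per gene and nucleus, made by the authors with Cell Ranger on mm10 with intronic reads included. The file header names version 6.1.2 and the labels 5.0.0. Nothing in them was normalized. The selection limits were applied to 32285 genes, and 99.6% of gene IDs matched GENCODE M21 of GRCm38, the source of positions.

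UMIs were summed over selected nuclei in each library and divided by their sum (CPM). The sums were 1239554 UMIs in Normal (3520 to 34007 per nucleus) and 2487477 in SAH (4571 to 30552), out of library totals of 114970719 and 172604358 UMIs. CPM carry exact Poisson intervals, shares exact Clopper-Pearson intervals and ratios exact conditional binomial intervals, all of 95%. The routine was tested on simulated data. A count of 0 allows up to 3 counts. Genes with at least 100 UMIs over both libraries were compared, and a gene past 2-fold is counted as called. Folds against other GABA nuclei had 0.5 UMI added.

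Genes named in the text are those of the rule, identity genes with at least 50 CPM in both libraries or at or near 0, the 15 largest folds over other GABA nuclei, the 10 genes highest and 10 lowest in SAH by the end of the interval nearer 0, and on each other list the genes past 2-fold and the 3 with most UMIs, of which examples are given. Hmcn1, Otx2os1 and other leading genes of a group were named from the groups. The members and lists were chosen with earlier results of these data known. Doublets were scored with Scrublet (scanpy 1.11.5) and kept, and their removal was an alternative, at 0.8% per 1000 nuclei. Groups were formed with scipy 1.17.1 and numpy 2.4.6 in Python 3.11.15, from log counts scaled per nucleus. The leading genes of a group had at least 40 UMIs in it. The most abundant gene of the oligodendrocyte and of the excitatory neuron list is not reported here.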

Additional observations from a re-analysis of the deposited data

Results flagged for a closer look

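In the selected nuclei Sst was higher in SAH, with a log2 ratio of 1.23 (46.0 CPM in Normal and 108 CPM in SAH), and in the other GABA nuclei it was lower, at 337 and 112 CPM with a log2 ratio of -1.59. The Sst group held 5 Normal and 20 SAH nuclei and gave 236 of the 326 Sst UMIs. Within the Mecom group the log2 ratio was -1.50, and with the Mecom, Tac2 and Megf10 groups weighted equally it was -0.81. That weighting leaves out the Sst group, where Sst went the other way, at 347 CPM in Normal and 771 CPM in SAH.

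Reln, the gene of the secreted protein reelin, stood out in the same way. Its log2 ratio was 1.00 in the selected nuclei (140 and 281 CPM) and -0.25 in the other GABA nuclei (346 and 291 CPM). It was 0.12, 1.19 and 2.86 within the Mecom, Tac2 and Megf10 groups. Both genes were singled out because they were past 2-fold in the selected nuclei and the intervals lay on opposite sides of 0 in the selected and the other GABA nuclei. Sox6 had intervals on opposite sides of 0 as well but was under 2-fold, with log2 ratios of -0.52 and 0.34. Its log2 ratio was -4.07, 1.67 and 0.58 within the Mecom, Tac2 and Megf10 groups and 0.40 with the groups weighted equally. The Mecom value rested on few nuclei, since that group had 51 Sox6 UMIs and Sox6 or Lhx6 was detected in 9 of its 109 nuclei. The difference was not tested for any of these genes, since each condition had 1 library.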

How the results depend on the processing

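A lower limit of 3 rule UMIs gave shares of 1.90% in Normal and 2.11% in SAH, a limit of 10 gave 0.339% and 0.419%, and thinning before the rule gave 0.428% and 0.432%. Removal of doublets (13 Normal and 23 SAH selected nuclei) and the study's limits on mitochondrial, haemoglobin and total UMIs left both shares within their intervals. The number of genes at least 2-fold higher was 49 with at least 10 rule UMIs, 57 with thinning before the rule, 19 with selected nuclei thinned, 217 and 27 with at least 50 and 300 UMIs per gene, and 320 at 1.5-fold. The number at least 2-fold lower was 199 with at least 3 rule UMIs, 29 with at least 10, 38 with thinning before the rule, 1 with selected nuclei thinned, 59 with ratios centred on their median, 334 and 9 with at least 50 and 300 UMIs, and 555 at 1.5-fold. Several of these settings change the number of genes compared, to 2462 with at least 10 rule UMIs and 920 with selected nuclei thinned, where the median log2 ratio was 0.08. None of the 20 genes with the largest ratios changed direction under any alternative in which it could be compared. Gm15680 dropped under 2-fold, from 1.64 to 0.88 on the log2 scale, with thinning before the rule, and Atp6v0b from -1.25 to -0.93 with at least 10 rule UMIs. With selected nuclei thinned only AY036118 and AC149090.1 could be compared, and AY036118 moved from 1.70 to 1.02 and AC149090.1 to -1.37. With groups weighted equally, an alternative chosen after seeing the data, 109 genes were higher and 143 lower by 2-fold. The mean over groups led by Klhl1, by Ebf2 or Ebf3 and by Otx2os1 was not run, since Ebf2 or Ebf3 led 1 Normal and 3 SAH nuclei. No paired analysis was possible because each condition had 1 library. Depth limits what the groups can show, with 102360 UMIs in the smallest.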

Other observations

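Peptide genes outside the comparison had few UMIs, held by few nuclei. Npy had 62 UMIs in the Normal and 29 in the SAH selected nuclei, 50.02 and 11.7 CPM, and 21 of the Normal UMIs were in a single nucleus. In the other GABA nuclei Npy stood at 155 and 71.0 CPM. Crh had 48 and 12 UMIs, 38.7 and 4.82 CPM, against 16.0 and 10.9 CPM in the other GABA nuclei. All 54 Normal UMIs of Bnc2 were in 1 nucleus, so its level of 203 CPM in the Normal Mecom group describes that nucleus.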
